A study of Mus musculus with 6 samples.

Results

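The mitochondrial genome of the mouse encodes 13 proteins, 2 ribosomal RNAs and 22 transfer RNAs, and all 37 genes were examined in RNA sequencing of whole sciatic nerve. They were taken as every gene whose symbol begins with mt-, 37 of the 39174 gene identifiers in the tables, and each lies on chromosome MT of GRCm38 with the coordinates of GENCODE release M21. The nerves came from 3 wild-type mice, numbered 2, 4 and 5, and from 3 Plekhg5-deficient mice, numbered 2, 3 and 5, which lack a guanine exchange factor and develop a late-onset motoneuron disease. The sample records call the animals adult (12 months of age), and no other allele or treatment is named for either group. No source used here restricts the deficiency to a cell type, and the dissected nerve holds Schwann cells, axons, fibroblasts, vessels and blood, with any adhering fat or muscle. In such bulk RNA, fewer cells of a type and less RNA per cell cannot be told apart. The nerve marker Pmp22, a myelin protein gene, was abundant in each library, from 4253 to 9389 scaled FPKM.

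Mitochondrial DNA is transcribed from both strands into long precursor RNAs that cover many genes, and most protein and ribosomal RNA genes are flanked by transfer RNA genes whose excision releases the individual transcripts. The mature messenger RNAs carry poly(A) tails that are added in the matrix, the ribosomal RNAs carry very short tails, and mature transfer RNAs end in CCA without a tail. The libraries were made with an mRNA kit that selects poly(A) RNA, so the levels of ribosomal and transfer RNA genes describe what such a kit captured and not the amount of these RNAs in the nerve. The 13 proteins are core subunits of the respiratory chain: 7 of complex I, which oxidizes NADH, 1 of complex III, 3 of complex IV, which reduces oxygen, and 2 of the ATP synthase. Every other protein of mitochondrial gene expression is imported from the cytosol.

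The genes are packed so closely that several share bases, which bears on how reads were divided between them. The following stretches are shown 5′ to 3′ on the strand of the gene, as DNA from the GENCODE transcripts of GRCm38, with the shared bases in capitals. In the first pair mt-Atp8 and mt-Atp6, which are translated from one messenger RNA, share 43 bases in different reading frames, and in the second mt-Nd4l and mt-Nd4 share 7.
mt-Atp8, last 60 bases, MT:7910-7969, plus strand: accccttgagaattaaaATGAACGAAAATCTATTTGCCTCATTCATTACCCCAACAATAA
mt-Atp6, first 60 bases, MT:7927-7986, plus strand: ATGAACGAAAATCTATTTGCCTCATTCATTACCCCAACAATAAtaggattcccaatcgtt
mt-Nd4l, last 40 bases, MT:10134-10173, plus strand: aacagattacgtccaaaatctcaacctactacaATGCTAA
mt-Nd4, first 40 bases, MT:10167-10206, plus strand: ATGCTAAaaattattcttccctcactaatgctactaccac

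Of the 37 genes, 28 are annotated on the plus strand and 9, namely mt-Nd6 and 8 transfer RNA genes, on the minus strand. The ends of mt-Nd5 and mt-Nd6 face each other and share 14 bases as reverse complements, and the transfer RNA gene mt-Ts1 shares 3 bases in the same manner with the end of mt-Co1. These are shown because no source used here states whether strand was considered when reads were assigned to genes. The messenger RNAs of mt-Co1 and mt-Nd5 are known to continue past their stop codons, opposite to mt-Ts1 and to mt-Nd6. Without strand, reads from such continuations and reads from the minus-strand gene cannot be told apart.
mt-Nd5, last 40 bases, MT:13526-13565, plus strand: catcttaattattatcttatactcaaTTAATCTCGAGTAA
mt-Nd6, last 40 bases, MT:13552-13591, minus strand: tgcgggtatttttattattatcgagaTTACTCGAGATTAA
mt-Co1, last 40 bases, MT:6833-6872, plus strand: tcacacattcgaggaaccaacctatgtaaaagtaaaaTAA
mt-Ts1, all 69 bases, MT:6870-6938, minus strand: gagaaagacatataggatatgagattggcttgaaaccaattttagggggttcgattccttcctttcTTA

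The question was whether these genes differed between wild-type and Plekhg5-deficient nerves. Values are FPKM (fragments per kilobase of transcript, relative to all mapped fragments) divided by 1 scale factor per library, and fold changes in log2 come from limma on log2(scaled FPKM + 1) fitted over 21285 genes, those that averaged 0.1 FPKM or more in wild-type or in Plekhg5-deficient nerves. Plekhg5 itself, the disrupted gene, was lower in the deficient nerves (0.0521 to 0.141 scaled FPKM) than in the wild-type nerves (3.65 to 5.26; log2 fold change -2.26, standard error 0.18, limma adjusted p = 0.0380). Leaving out any single nerve kept its direction and gave adjusted p-values of 0.0763 to 0.268. Of the 37 mitochondrial genes, 32 were tested and 5 transfer RNA genes were listed at 0 in every library. No mitochondrial gene passed an adjusted p of 0.05, against 0.0376% of all genes tested, and 0 of the 32 separated the genotypes without overlap, against 11.6%. At an unadjusted p under 0.05 there was 1 of the 32, against 5.11% of all genes. The adjusted p-values of the 32 lay between 0.972 and 0.999. Their median log2 fold change was 0.22, with 21 above and 11 below 0, beside a median of 0.0065 over all genes tested.

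The protein genes differed widely between nerves of the same genotype. All 13 were highest in Plekhg5-deficient nerve 5, second highest in wild-type nerve 5, and 12 were lowest in wild-type nerve 4. Plekhg5-deficient nerve 5 stood 2.12-fold to 2.88-fold, and wild-type nerve 5 1.28-fold to 2.26-fold, above the highest of the other 4 nerves, which themselves spanned 1.12-fold to 1.54-fold from lowest to highest. With FPKM as deposited, both nerves numbered 5 were again above the other 4 for all 13 genes. Plekhg5-deficient nerve 5 was then above wild-type nerve 5 for 12 of them. The gaps were smaller as deposited. For mt-Co1, Plekhg5-deficient nerve 5 had 58487 against 40063 in wild-type nerve 2, the highest of the other 4. For mt-Cytb it had 28024 against 27710 in wild-type nerve 5. The scale factor of Plekhg5-deficient nerve 5, 0.745, was the lowest of the libraries. The numbers are not explained in the labels, and whether they mark a shared litter, day or batch is not given.

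Among the 3 core subunits of complex IV, mt-Co1 holds the heme and copper site where oxygen is reduced. Its scaled FPKM were 36576, 29776 and 46657 in wild-type nerves 2, 4 and 5, and 35730, 34275 and 78550 in Plekhg5-deficient nerves 2, 3 and 5. The 2 lower Plekhg5-deficient values fell inside the wild-type range and the third lay above it. mt-Co2, which accepts electrons from cytochrome c, had 20828, 16502 and 32111 in wild-type nerves and 20943, 23616 and 50013 in Plekhg5-deficient nerves, in the same order. mt-Co3, a structural subunit, had 37131, 27848 and 49099 against 36595, 36212 and 81002. For all 3 genes the genotypes overlapped, and the mean was 1.31-fold, 1.36-fold and 1.35-fold higher in Plekhg5-deficient nerves, with log2 fold changes of 0.31, 0.39 and 0.36 and standard errors of 0.88, 0.78 and 0.89.

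The ATP synthase subunits mt-Atp6 and mt-Atp8 belong to the membrane part through which protons flow. mt-Atp6 was the most abundant of the 37 genes by mean, with 34728, 28685 and 54302 scaled FPKM in wild-type nerves and 37689, 39040 and 94881 in Plekhg5-deficient nerves. Its mean of 57203 ± 32637 (SD, n = 3) in Plekhg5-deficient nerves was 1.46-fold that of wild-type nerves (39238 ± 13391, SD, n = 3), the largest fold among the protein genes, with a log2 fold change of 0.46 and a 95% interval from -1.76 to 2.67. mt-Atp8 had 5918, 5991 and 16036 in wild-type nerves and 5871, 7104 and 20461 in Plekhg5-deficient nerves. Here wild-type nerve 5 was closer to Plekhg5-deficient nerve 5 than to either of its own group, and the log2 fold change was 0.20, the lowest of the 13. The FPKM of mt-Atp6 was 5.87, 4.79 and 3.39 times that of mt-Atp8 in wild-type nerves and 6.42, 5.50 and 4.64 times in Plekhg5-deficient nerves, although the 2 coding regions are parts of 1 messenger RNA. Cufflinks divides reads that fall in the 43 shared bases by its model, and mt-Atp8, at 204 bases, is the shortest of the protein genes.

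mt-Cytb is the single mitochondrially encoded subunit of complex III, which passes electrons from ubiquinol to cytochrome c. It had 14746, 12609 and 27948 scaled FPKM in wild-type nerves against 15433, 16970 and 37637, a log2 fold change of 0.31 ± 0.74 (standard error). The gene overlaps no other, and the 5 protein and ribosomal RNA genes without an overlap had Cufflinks intervals of 0.264% to 1.11% on either side of the value, against 4.13% to 4.53% for the other 10.

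Of the 7 complex I subunits, mt-Nd1, which forms part of the ubiquinone site, was the most abundant, with 22930, 15908 and 35417 scaled FPKM in wild-type nerves and 20166, 23475 and 55058 in Plekhg5-deficient nerves. mt-Nd4, a proton-pumping subunit, had 15965, 13756 and 26269 against 17526, 17543 and 39850. mt-Nd3, a small subunit at the junction of the arms of the complex, had 8694, 5629 and 12848 against 8107, 8143 and 20098. The order of nerves was nearly the same in these genes, with nerves 5 at the top and wild-type nerve 4 at the bottom. mt-Nd2, also a proton-pumping subunit, had 7099, 5486 and 10747 in wild-type nerves and 5936, 5993 and 17964 in Plekhg5-deficient nerves, and without both nerves numbered 5 it was the 1 protein gene with a log2 fold change below 0 (-0.080). mt-Nd4l had 2356, 2282 and 5290 against 2418, 2561 and 7372.

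The remaining complex I genes lie near the far end of the plus-strand genes and opposite to them. mt-Nd5, a proton-pumping subunit, had 3157, 3094 and 7321 scaled FPKM in wild-type nerves and 3923, 3787 and 9947 in Plekhg5-deficient nerves. mt-Nd6, the single protein gene of the minus strand, had 3404, 2648 and 6328 against 3537, 3781 and 9782. mt-Nd6 was thus at 0.856 to 1.08 times the FPKM of mt-Nd5, whose end it faces, in all 6 libraries. Relative to the 12 protein genes of the other strand, mt-Nd6 had 1.62, 1.58 and 1.95 FPKM per 100 in wild-type nerves and 1.68, 1.73 and 1.91 in Plekhg5-deficient nerves (exact two-sided permutation test p = 0.6, adjusted over 8 tests p = 0.686). With 3 nerves against 3 this exact test cannot go below p = 0.1. Whether the mt-Nd6 value counts sense or antisense RNA was not tested.

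**Figure D1:**
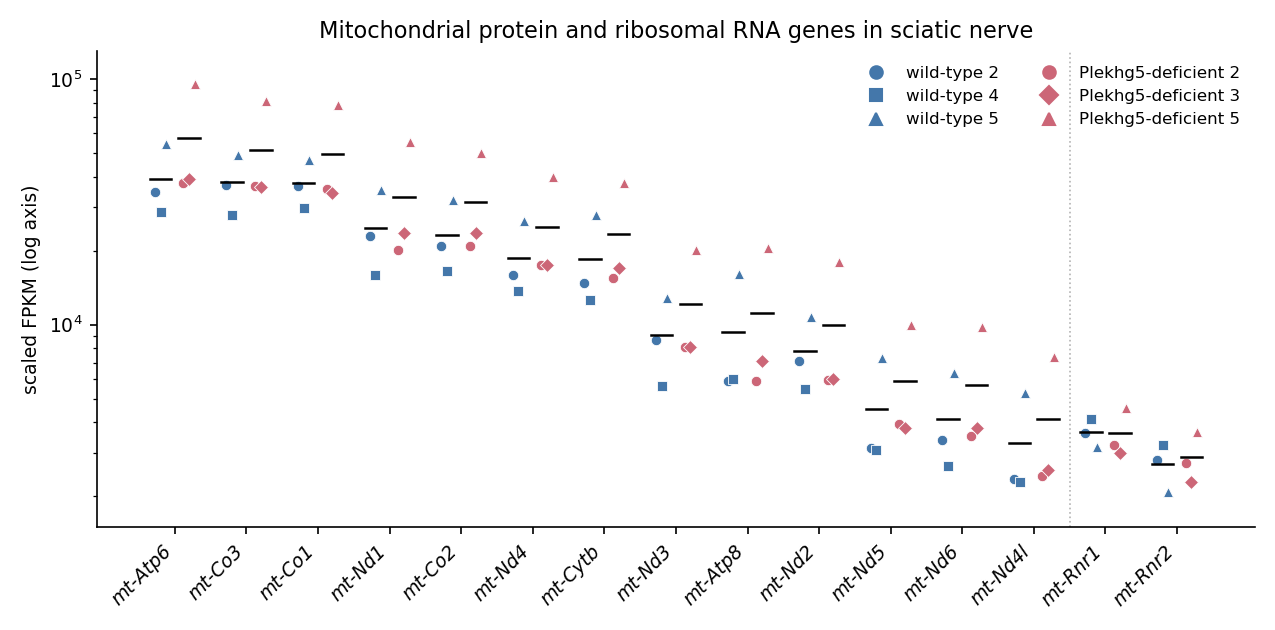
Scaled FPKM (log axis) of the 13 protein genes and, right of the dotted line, the 2 ribosomal RNA genes in the 6 sciatic nerves. A symbol marks 1 library, and a black bar marks the mean of a genotype. For all 13 protein genes Plekhg5-deficient nerve 5 is highest and wild-type nerve 5 second, while the other 4 nerves mix.

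By mean, the order of the protein genes was mt-Atp6, mt-Co3, mt-Co1, mt-Nd1, mt-Co2, mt-Nd4, mt-Cytb, mt-Nd3, mt-Atp8, mt-Nd2, mt-Nd5, mt-Nd6 and mt-Nd4l. The first 3 were the same genes in all 6 libraries but did not differ beyond their spread, and the ratio of mt-Co1 to mt-Co3 lay between 0.946 and 1.07. Neighbours further down also changed places between libraries, such as mt-Nd5 and mt-Nd6. From highest to lowest the means fell from 48221 to 3713 scaled FPKM. This order and range depend on how reads were shared with copies of mitochondrial sequence in the nuclear genome, described below. Gm10222, a copy of mt-Nd4l, had 98.6 to 99.3 FPKM per 100 FPKM of that gene, and Gm13341 had 26.6 to 29.7 per 100 of mt-Co2. Between genes of the plus strand, mt-Co1 stood at 6.37 to 11.6 times the FPKM of mt-Nd5. Whether the messenger RNAs differed as much in the nerve was not tested.

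As a sum, the 13 protein genes had 213533, 170213 and 330372 scaled FPKM in wild-type nerves and 213875, 222499 and 522615 in Plekhg5-deficient nerves. Between the nerves numbered 2 the sums were nearly equal, and between those numbered 5 the Plekhg5-deficient nerve was higher. The means were 238039 ± 82844 and 319663 ± 175814 (SD, n = 3 each), a log2 difference of 0.35 with an exact permutation p of 0.5. Without Plekhg5-deficient nerve 5 the log2 difference of the sums was -0.070. In that fit 12 of the 13 genes had a log2 fold change below 0 (from -0.36 for mt-Atp8 to 0.016 for mt-Atp6). Without both nerves numbered 5 the log2 difference was 0.19, and 12 of the 13 genes had a log2 fold change above 0. The direction thus depended on which nerves were left out.

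The balance among protein transcripts, which does not depend on the scaling between libraries, was steadier than their level. Complex IV genes made up 38.7% to 44.3% of the summed FPKM of the 13, complex I genes 28.7% to 31.5%, ATP synthase genes 19.0% to 22.1% and mt-Cytb 6.91% to 8.46%. By gene, the highest share over the lowest ranged from 1.10 for mt-Nd4 to 1.77 for mt-Atp8. mt-Atp6 was the single gene whose shares did not overlap between genotypes, with 16.3%, 16.9% and 16.4% in wild-type nerves against 17.6%, 17.5% and 18.2%. The difference was 1.26 percentage points. It was picked out of 13 after the values were seen, its exact permutation p was 0.1, the smallest possible, and 1 after adjustment over the 13. The share of mt-Atp8 and mt-Atp6 together overlapped, at 19.0%, 20.4% and 21.3% against 20.4%, 20.7% and 22.1%.

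**Figure D2:**
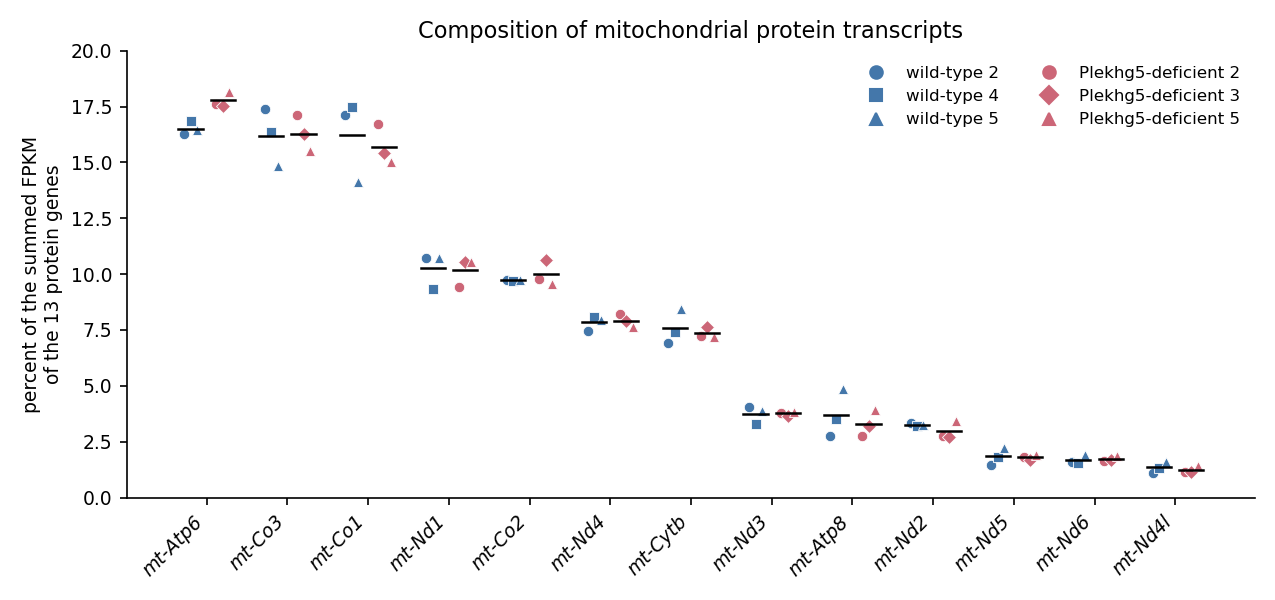
Percent of the summed FPKM of the 13 mitochondrial protein genes that each gene contributed, by library, with the mean of 3 as a black bar. The shares of mt-Atp6 run from 16.3% to 16.9% in wild-type and from 17.5% to 18.2% in Plekhg5-deficient nerves, and for the other 12 genes the genotypes overlap.

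mt-Rnr1 and mt-Rnr2 are the ribosomal RNAs of the small and large mitochondrial subunits. By scaled FPKM both were highest in Plekhg5-deficient nerve 5, like the protein genes, but ordered the wild-type nerves otherwise. mt-Rnr1 had 3625, 4118 and 3178 scaled FPKM in wild-type nerves against 3251, 3013 and 4597, a log2 fold change of -0.025 ± 0.38 (standard error). mt-Rnr2 had 2803, 3223 and 2092 against 2745, 2281 and 3658 (0.092 ± 0.38). Wild-type nerve 5, second highest for all protein genes, was lowest for mt-Rnr2. Wild-type nerve 4, lowest for 12 protein genes, was second highest for both ribosomal RNAs. The peak in Plekhg5-deficient nerve 5 depended on the scaling. With FPKM as deposited, wild-type nerve 4 was highest for mt-Rnr1 and mt-Rnr2, with 4605 and 3604. Plekhg5-deficient nerve 5 then had 3423 and 2723. Their sum was 6347 ± 1038 in wild-type and 6515 ± 1547 in Plekhg5-deficient nerves (SD, n = 3 each, log2 difference 0.025, exact permutation p = 0.9), and this direction turned under other scalings (-0.14 with FPKM as deposited).

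Per 100 FPKM of protein genes, the ribosomal RNAs had 3.01, 4.31 and 1.60 in wild-type nerves and 2.80, 2.38 and 1.58 in Plekhg5-deficient nerves. Both nerves numbered 5 had the lowest values, and the genotypes overlapped (exact permutation p = 0.4, adjusted p = 0.686). Within the pair, the ratio of mt-Rnr2 to mt-Rnr1 was 0.773, 0.783 and 0.658 in wild-type nerves, against 0.844, 0.757 and 0.796 (exact permutation p = 0.4).

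Transfer RNA genes, at 59 to 75 bases, were barely captured. Most Cufflinks values of these genes were whole multiples of the value of 1 read, so the number of reads behind them could be estimated. Among the 16 genes without an overlap, 8 of 10, 10 of 12 and 11 of 12 values above 0 were whole in wild-type nerves. In Plekhg5-deficient nerves 5 of 7, 7 of 11 and 9 of 10 were. Whether the fractions stand for reads shared between places was not tested. Genes with an overlap, such as mt-Ts1, were not in this check. All 22 genes together held 436, 375.5 and 690 reads in wild-type nerves and 444, 750.5 and 1552 in Plekhg5-deficient nerves, which was 0.00187% to 0.0084% of mapped reads. Between 90.1% and 97.2% of them fell in mt-Ts1, mt-Te and mt-Tl1. The other 19 genes had at most 9 reads in any library and 25 to 43.3 reads in sum, and mt-Tf, mt-Tk, mt-Ts2, mt-Tl2 and mt-Tt had 0 reads in each. A count of 0 allows an expected count of up to 3 reads, in libraries that select poly(A) RNA. It does not show that these RNAs were absent from the nerve.

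mt-Ts1, a serine transfer RNA gene that lies opposite to the stretch past mt-Co1, had 152, 246.5 and 421.5 reads in wild-type nerves and 203, 267.5 and 736.5 in Plekhg5-deficient nerves, or 86.1, 208 and 557 against 166, 168 and 776 scaled FPKM. mt-Te, the glutamate transfer RNA gene between mt-Nd6 and mt-Cytb, had 179, 71 and 200 reads against 160, 412 and 736, or 101, 59.8 and 264 against 131, 259 and 775 scaled FPKM. The 2 highest libraries for mt-Ts1 were the nerves numbered 5, as for the protein genes, while for mt-Te Plekhg5-deficient nerve 3 came close to wild-type nerve 5. The log2 fold changes were 0.37 and 1.34 with standard errors of 0.85 and 0.77, and both genes overlapped between genotypes. Without Plekhg5-deficient nerve 5 they were -0.37 and 0.64. Both are minus-strand genes, and the other 6 transfer RNA genes of that strand had at most 7.33 reads. The ratio of mt-Co1 to mt-Ts1 ranged from 83.8 to 425 and that of mt-Nd5 to mt-Te from 12.8 to 51.8. Which strand the reads of mt-Ts1 and mt-Te came from was not tested.

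The third, mt-Tl1, is a leucine transfer RNA gene on the plus strand between mt-Rnr2 and mt-Nd1. It and mt-Te are printed here beside mt-Ts1, shown above, because these 3 genes carry nearly all the transfer RNA reads.
mt-Tl1, MT:2676-2750, plus strand: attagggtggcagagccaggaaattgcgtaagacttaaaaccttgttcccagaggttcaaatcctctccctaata
mt-Te, MT:14071-14139, minus strand: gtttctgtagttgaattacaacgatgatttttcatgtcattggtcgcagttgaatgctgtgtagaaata
Reads in mt-Tl1 numbered 62, 26 and 30 in wild-type nerves and 50, 46 and 36 in Plekhg5-deficient nerves, and its scaled FPKM were 32.3, 20.1 and 36.4 against 37.6, 26.6 and 34.9. By scaled FPKM mt-Tl1 was highest in Plekhg5-deficient nerve 2, and by reads in wild-type nerve 2. The Cufflinks intervals of its values were 25.8% to 39.4% on either side, so the order of its libraries is uncertain.

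The histidine transfer RNA gene mt-Th was the 1 gene at an unadjusted p under 0.05 (limma adjusted p = 0.972), lower in Plekhg5-deficient nerves, against 2.69% of all genes in that direction. It rested on 2 reads in wild-type nerve 4, 2 in wild-type nerve 5 and 0 in the other 4 nerves. A count of 0 allows an expected count of up to 3 reads, so these counts do not separate the nerves. mt-Tm, mt-Ta and mt-Tg, the next most abundant, had 2 to 9 reads, 4 to 7.33 reads and 2 to 6 reads per library. Summed, the transfer RNA genes had 489 ± 365 scaled FPKM in wild-type and 820 ± 705 in Plekhg5-deficient nerves (SD, n = 3 each, log2 difference 0.66, exact permutation p = 0.5). Without mt-Ts1 the log2 difference of the sums was 1.02 (exact permutation p = 0.3). Relative to 100 FPKM of protein genes they had 0.114, 0.185 and 0.275 against 0.168, 0.211 and 0.312 (exact permutation p = 0.5), highest again in the nerves numbered 5.

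**Figure D3:**
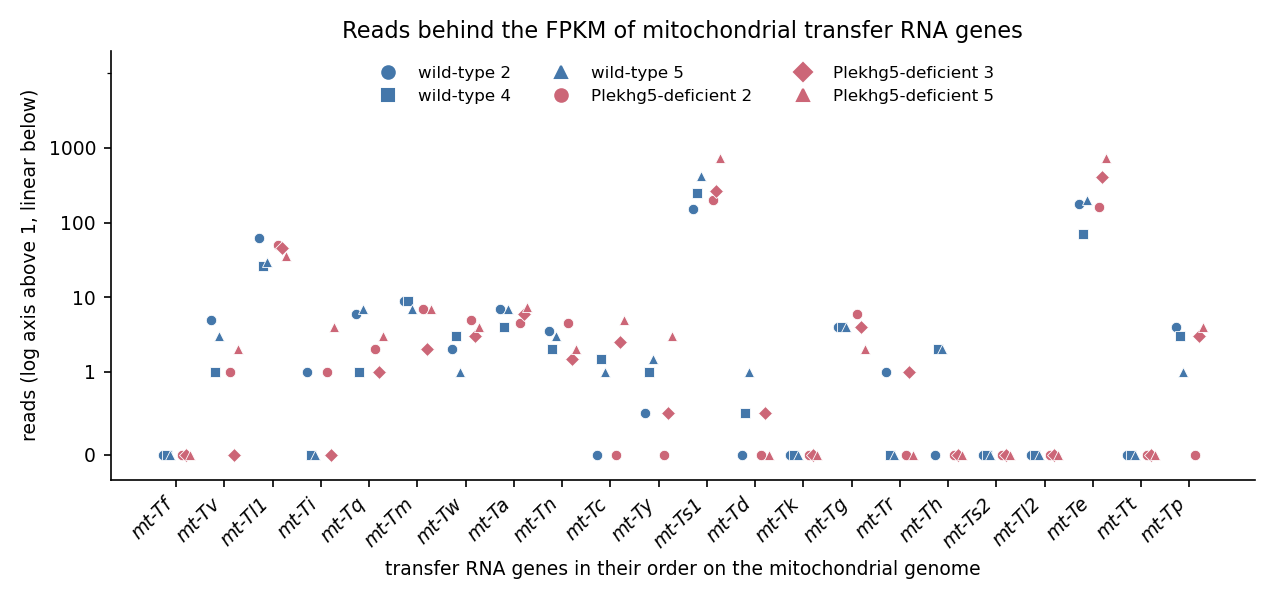
Reads behind the FPKM of each of the 22 mitochondrial transfer RNA genes, in genome order, on an axis that is linear up to 1 read and logarithmic above. A symbol marks 1 library. mt-Ts1, mt-Te and mt-Tl1 hold 26 to 736.5 reads, the other 19 genes at most 9, and 5 genes are at 0 in all 6 libraries.

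**Figure D4:**
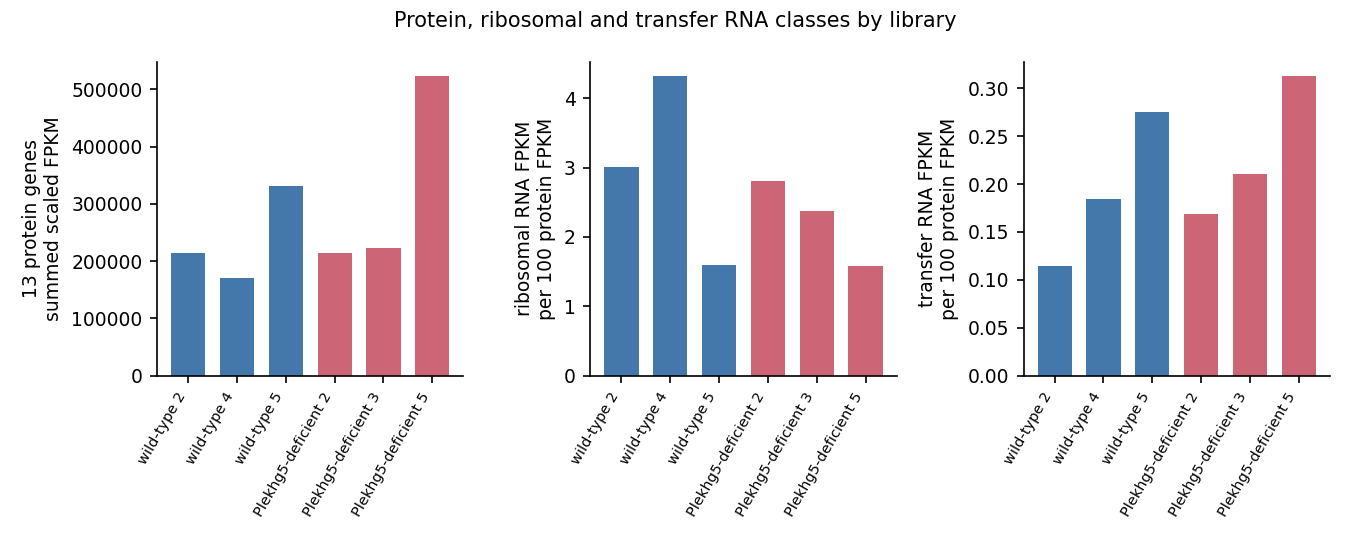
Summed scaled FPKM of the 13 protein genes, ribosomal RNA FPKM per 100 protein FPKM and transfer RNA FPKM per 100 protein FPKM in each library, as bars from 0. Nerves numbered 5 are highest for protein (330372 and 522615) and transfer RNA (0.275 and 0.312) and lowest for ribosomal RNA (1.60 and 1.58).

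Copies of mitochondrial sequence lie in the nuclear genome, and reads from one can be placed in the other. Alignment found 20 annotated nuclear copies of at least 150 bases and 85% identity to 12 of the mitochondrial genes, 11 of them protein genes, and 11 copies are in the tables. Gm10222 is identical to mt-Nd4l over 294 of its 297 bases and had 98.6 to 99.3 FPKM per 100 FPKM of mt-Nd4l in every library, so the value of mt-Nd4l is uncertain. Gm13341, 95.9% identical to mt-Co2, had 26.6 to 29.7 FPKM per 100 of its counterpart, and Gm13340, 97.6% identical to mt-Co1, had 8.96 to 9.54. These proportions hardly moved between libraries. mt-Atp6, mt-Co2, mt-Co3 and mt-Nd4 also have copies identical over 678, 681, 783 and 876 bases. For mt-Nd3 and mt-Co1 there are further copies 99.7% and 99.8% identical over 345 and 483 bases. None of these copies is listed among the deposited values, and how reads were shared with them was not tested.

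Measured in reads, the 37 genes took 23.2%, 19.3% and 31.2% of each wild-type library and 23.2%, 22.8% and 37.2% of each Plekhg5-deficient library. As a share of summed FPKM they took 29.6%, 26.1% and 35.6% against 30.0%, 29.3% and 37.2% (30.5% ± 4.80 and 32.1% ± 4.38, SD, n = 3 each, exact permutation p = 0.6). Without Plekhg5-deficient nerve 5 the difference was -0.84 percentage points, and without wild-type nerve 4 it was -0.48, each against 1.68 with all nerves. With haemoglobin left out of the total the difference was 3.61 percentage points (exact permutation p = 0.6).

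Plekhg5-deficient nerve 5 also stood apart in muscle and erythroid markers, and wild-type nerve 5 in T-cell and B-cell markers. Skeletal muscle markers, led by Acta1 and Tnni2, summed to 23620, 3739 and 16794 scaled FPKM in wild-type nerves 2, 4 and 5. In Plekhg5-deficient nerves they summed to 3383, 403 and 60877, and 24 of the 25 were highest in Plekhg5-deficient nerve 5. Erythroid markers, led by Hba-a1 and Hba-a2, were highest there for 10 of 10, with a sum of 230335 against 4090 to 24406 elsewhere. Haemoglobin genes took 15.98% of the summed FPKM of that library and 0.507% to 2.56% of the other 5. With them left out of the total the mitochondrial share of Plekhg5-deficient nerve 5 was 44.2%. In wild-type nerve 5, T-cell and B-cell markers, led by Cd79b and Cd79a, were highest for 11 of 11, with a sum of 186 against 3.39 to 8.61. White adipocyte markers, led by Fabp4 and Cfd, were highest in Plekhg5-deficient nerve 5 for 5 of 8, with a sum of 6765 there and 953 to 3211 elsewhere. Brown adipocyte markers, led by Cox7a1 and Ucp1, were highest there for 3 of 7, with a sum of 236 there and 16.9 to 230 elsewhere. Without Cox7a1, which had 199 there, the brown adipocyte sum was 37.7 in that nerve and 129 in wild-type nerve 2. The myelinating Schwann cell markers summed to 11145, 20168 and 12660 in wild-type nerves 2, 4 and 5. In Plekhg5-deficient nerves 2, 3 and 5 they summed to 19511, 19815 and 11623. The nerves with the lower sums, wild-type 2 and 5 and Plekhg5-deficient 5, were those with the highest muscle sums. No list had a member at 0 in all libraries. Wild-type nerve 2 had 23620 of skeletal muscle markers with mitochondrial protein transcripts close to those of Plekhg5-deficient nerve 2, where the muscle sum was 3383. The part of these tissues in the mitochondrial levels was not tested.

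**Figure D5:**
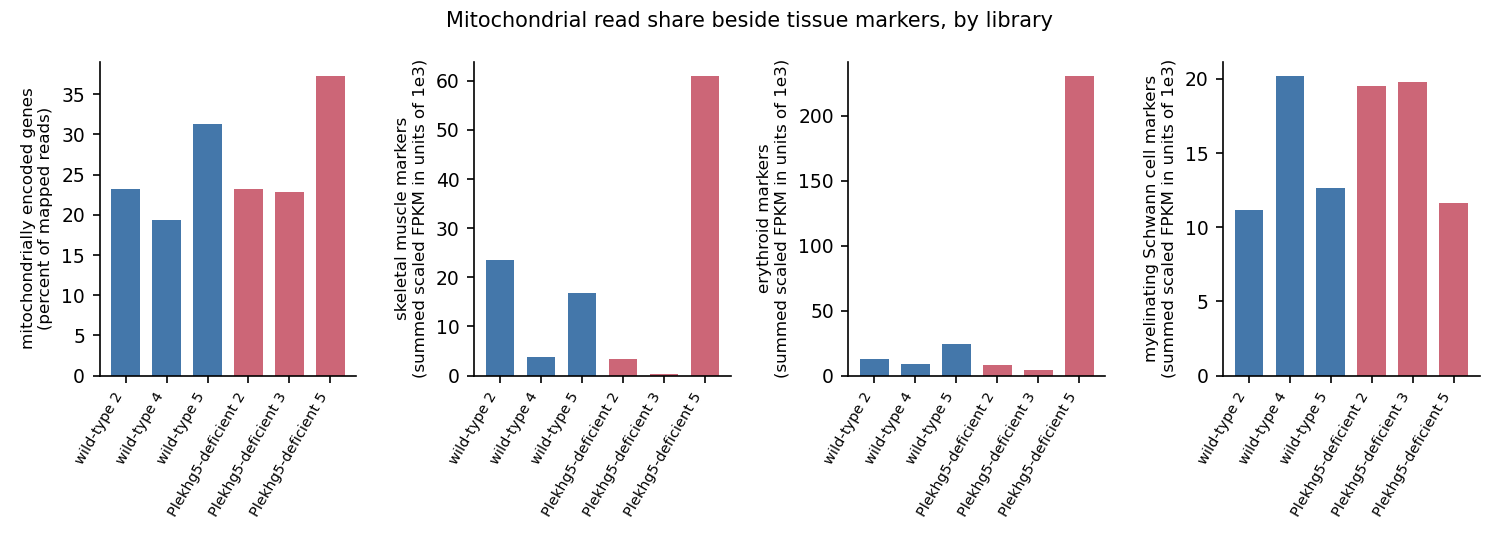
Percent of mapped reads in the 37 mitochondrial genes beside the summed scaled FPKM (in units of 1e3) of skeletal muscle, erythroid and myelinating Schwann cell markers, by library, as bars from 0. Plekhg5-deficient nerve 5 has the highest mitochondrial share (37.2%), muscle sum and erythroid sum, and wild-type nerve 5 the second highest mitochondrial share (31.2%).

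Nuclear genes whose products work with the mitochondrial genes were counted in 9 lists of 233 genes, all tested. None passed an adjusted p of 0.05, 1 was lower and 4 were higher at an unadjusted p under 0.05 (against 2.69% and 2.41% of all genes), and 13 (5.58%) did not overlap between genotypes, against 11.6% of all genes. Of the 75 nuclear subunits of the complexes that the mitochondrial proteins join, 69 were highest in Plekhg5-deficient nerve 5, as all 13 protein genes were. Of the same 75, 1 did not overlap between genotypes. The share of all genes tested that were highest in that nerve was not counted, so the 69 cannot be set against it. Wild-type nerve 5, second highest for all 13 mitochondrial protein genes, was second for 11 of the 75, and it was above wild-type nerve 2 for 17. Median log2 fold changes were 0.23 for 36 subunits of complex I, 0.21 for 9 of complex III, 0.22 for 15 of complex IV and 0.23 for 15 of the ATP synthase. Without Plekhg5-deficient nerve 5 these were 0.040, -0.12, 0.13 and -0.043. Ndufa4, an abundant subunit counted here with complex IV, had 931, 513 and 728 scaled FPKM in wild-type nerves and 652, 1125 and 1284 in Plekhg5-deficient nerves. Cox8a had 869, 683 and 1017 against 780, 1041 and 1189. Both overlapped between genotypes.

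The other lists cover the transcription, processing and translation of mitochondrial RNA. Over the 15 genes of transcription and replication the median log2 fold change was 0.14, and 0.047 without Plekhg5-deficient nerve 5. Polrmt, the mitochondrial RNA polymerase, had 16.4, 11.0 and 15.6 scaled FPKM in wild-type and 14.7, 14.6 and 21.3 in Plekhg5-deficient nerves. Among 35 genes of RNA processing, stability and modification the median was 0.19, and 5 (14.3%) did not overlap, near the 11.6% of all genes. One of these was Slirp, which with Lrpprc binds and stabilizes mitochondrial messenger RNAs, with 103, 86.4 and 76.0 scaled FPKM in wild-type nerves against 114, 137 and 153. The genotypes did not overlap, and the log2 fold change was 0.60 ± 0.20 (limma unadjusted p = 0.0227, adjusted p = 0.923). Supv3l1, a helicase of mitochondrial RNA decay, and Nsun3, which methylates a mitochondrial transfer RNA, were the other 2 at an unadjusted p under 0.05 in that list, and these, with the ribosomal protein genes Mrps12 (lower) and Mrps17 (higher), were named after their values were seen.

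Mitochondrial ribosomal proteins, 75 genes that assemble with mt-Rnr1 and mt-Rnr2, had a median of 0.10 in log2 fold change (-0.0069 without Plekhg5-deficient nerve 5). Of these genes, 39 were highest in that nerve, again without a share over all genes beside it. The 22 genes for loading amino acids onto transfer RNAs had a median of 0.044 and the 11 regulators of mitochondrial biogenesis one of 0.025, which were 0.068 and -0.17 without that nerve.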

How the data were processed

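Total RNA from whole sciatic nerve, 1 library per animal, was sequenced on an Illumina NextSeq 500. The authors trimmed reads with Trim Galore 0.4.0, checked them with FastQC 0.10.1, mapped them to GRCm38 with STAR and deposited FPKM per gene with 95% intervals from Cufflinks 2.2.1; no source used here states the strand setting, the treatment of multi-mapped reads or the annotation release. The 19 identifiers with several entries, of 39174, were summed over them. Values were divided by median-of-ratios factors (0.745 to 1.12), and genes averaging 0.1 FPKM or more in one of the genotypes were tested on log2(FPKM + 1). The model was limma's (version 3.58.1, R 4.3.3), held genotype alone and used a trended prior variance, and p-values were adjusted after Benjamini and Hochberg. This scale understates changes of low genes. Single values were compared with exact two-sided permutation tests over 20 splits (scipy 1.17.1). The fit was tested on simulated data. Genotypes came from the sample titles.

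The value of 1 read was taken from FPKM times length of transfer RNA genes and the width of their intervals. It gave totals of 23370264, 15395606 and 11068723 reads in wild-type nerves 2, 4 and 5 and 16233235, 21927156 and 18475152 in Plekhg5-deficient nerves 2, 3 and 5, with the fewest in wild-type nerve 5. Read numbers and their limits cover counting error alone. Nothing says more of the replicates than that they are 3 animals per genotype. Figures were drawn with matplotlib 3.10.9.

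The genes, the lists and the naming rule were chosen with earlier results of these data known. Named were the mitochondrial genes (transfer RNAs by the 6 highest means and any called or without overlap), Plekhg5 and the leading 2 genes of each list where a result turned on them; other names were chosen after their values were seen, mt-Th and the transfer RNA genes at 0 among them. One further leading gene of a list is not reported here. Of the symbols in the lists, those not found in the tables were left out. The fit was repeated with a pseudocount of 0.1 or 0.5, without the FPKM limit or with 1 FPKM, on unscaled values, with other scalings, no variance trend, array weights, a replicate block, and leaving out libraries. Leaving out transfer RNA genes, the leading transfer RNA gene or haemoglobin was also tried, and adding nuclear copies and shares of reads were added after seeing the data.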

Additional observations from a re-analysis of the deposited data

How the results depend on the processing

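No mitochondrial gene and no gene of the partner lists passed an adjusted p of 0.05 from limma under any of the 18 alternatives fitted over all genes. Plekhg5 stayed lower in Plekhg5-deficient nerves under all 18, but was no longer called without a limit on low values (log2 fold change -2.26, adjusted p = 0.138), scaled to the mitochondrial protein genes (-2.40), without both libraries numbered 5 (-2.18), or without any single library (-2.33 to -2.14). The direction of most mitochondrial genes turned when some single library was left out, and the cause was not tested. Leaving out 1 library at a time gave log2 fold changes from -0.086 to 0.51 for mt-Co1, -0.0056 to 0.64 for mt-Co2, -0.028 to 0.55 for mt-Co3, -0.36 to 0.66 for mt-Atp8, -0.10 to 0.64 for mt-Cytb, -0.11 to 0.62 for mt-Nd1, -0.33 to 0.47 for mt-Nd2, -0.080 to 0.64 for mt-Nd3, -0.037 to 0.63 for mt-Nd4, -0.30 to 0.61 for mt-Nd4l, -0.11 to 0.75 for mt-Nd5 and -0.078 to 0.75 for mt-Nd6. mt-Atp6 alone of the protein genes kept its sign (0.016 to 0.71). The same ranges were -0.21 to 0.092 for mt-Rnr1, -0.094 to 0.25 for mt-Rnr2, -0.071 to 0.33 for mt-Tl1, -0.36 to 0.31 for mt-Ta, -0.37 to 1.04 for mt-Ts1 and -0.44 to 0.079 for mt-Tg. The sign held for mt-Te (0.64 to 1.92), mt-Th (-1.66 to -0.73) and mt-Tm (-1.08 to -0.12). Among summed values the log2 difference ran from -0.070 to 0.61 for protein genes, from -0.16 to 0.16 for ribosomal RNAs and from -0.0031 to 1.23 for transfer RNAs. It ran from -0.72 to 0.00061 for the ribosomal to protein ratio, from -0.016 to 0.62 for the transfer to protein ratio and from -0.0069 to 0.15 for mt-Nd6 relative to the other protein genes, and the mitochondrial share of summed FPKM differed by -0.84 to 4.26 percentage points.

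Scaled to the mitochondrial protein genes, which sets their sum equal, the log2 fold change turned negative for mt-Rnr2 (-0.26), mt-Tl1 (-0.16), mt-Nd1 (-0.013), mt-Nd2 (-0.15), mt-Co1 (-0.043), mt-Atp8 (-0.15), mt-Nd4l (-0.12), mt-Nd5 (-0.0012) and mt-Cytb (-0.042). Array weights turned mt-Rnr2 (-0.078), mt-Nd2 (-0.047), mt-Atp8 (-0.060) and mt-Tg (0.32). Without both libraries numbered 5, mt-Rnr2 (-0.28), mt-Nd2 (-0.080), mt-Ta (0.0092), mt-Tg (0.26) and the ribosomal RNA sum (-0.29) turned. With FPKM as deposited, mt-Rnr2 (-0.076) and the ribosomal RNA sum (-0.14) turned, as they did when scaled to the sum of other genes (-0.020 and -0.087). For the other protein and ribosomal RNA genes, mt-Ts1, mt-Te, mt-Tm, mt-Th and the other sums the direction held under these settings; nuclear genes other than Plekhg5 were not refitted singly. Over 162 fits, medians of the 9 partner lists moved by more than the spread between nerves in 11, and changed sign in 34. Without the leading transfer RNA gene the transfer to protein ratio differed by 0.67 in log2, against 0.31.

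Numbers 2 and 5 occur in both genotypes without a stated meaning. Deviations from the genotype means correlated at 0.073 for number 2 and 0.58 for number 5. Across numbers they correlated at -0.3 (wild-type 2 with Plekhg5-deficient 5) and -0.36 (wild-type 5 with Plekhg5-deficient 2). With so few nerves these values cannot decide whether the numbers mark pairs, and the nerves were not taken as paired. With a replicate block over these 4 libraries Plekhg5 had a log2 fold change of -2.27 and an adjusted p of 0.319, no mitochondrial gene was called, and mt-Rnr1 turned to 0.18. Transfer RNA values rest on few reads, and an interval of at least 4.13% limits genes that share bases.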
